A study of Mus musculus with 11 samples.

Results

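Cortex in which Prkci was floxed under an Ng2-Cre driver (Prkci cKO) was compared with Control cortex, as 4 libraries against 4 of the 11 libraries of the series. Genes entered if their normalised signal reached 1 in at least 3 of the 11 libraries, which kept 14330 of the 16228 genes in the table. Each library was made from RNA of one 4 mm punch of cortex of a mouse at postnatal day 30, with no treatment. The 4 Prkci cKO mice were Ng2 Cre+ Prkci f/f. All 4 Controls lacked Cre and came from the Prkcz line: Controls 1 and 2 were Pkcz f/+ and Controls 3 and 4 were Pkcz f/f. No Prkci f/f animal without Cre and no animal with Cre alone was among these samples, so the loss of Prkci, the presence of Cre and the mouse line cannot be told apart in this comparison. The 3 Ng2-Cre+ Prkcz f/f libraries (Prkcz cKO) entered the fit for its estimate of the spread, and their values stand beside a few results.

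PRKCI and PRKCZ are the atypical protein kinases C, which do not need calcium or diacylglycerol and act with the PAR3 and PAR6 scaffold proteins to set up cell polarity. In the brain, NG2-positive oligodendrocyte precursors divide, pass through a short premyelinating stage and become the cells that wrap axons in myelin. Ng2-Cre is driven by regulatory sequence of Cspg4, the gene of the NG2 proteoglycan, which pericytes carry as well as precursors, so recombination is not limited to one cell type.

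Prkci (chromosome 3, 30995747 to 31052959, GRCm38) had a normalised signal of 85.3, 86.1, 89.02 and 90.7 in Controls 1 to 4 and of 65.04, 68.2, 67.99 and 66.6 in Prkci cKO 1 to 4. Every Prkci cKO library lay below every Control, and 76.3% of the Control mean remained in the whole tissue (log2 change -0.39, SE 0.0449, limma adjusted p = 9.84e-04). The signal sums all exons and all cells of the punch, so the floxed exon and the recombined cells were not seen separately. Prkcz, the other atypical kinase, was 323 ± 20.2 in Controls and 314 ± 6.93 in Prkci cKO (mean ± SD, n = 4 each), a log2 change of -0.04 with a 95% interval of -0.14 to 0.07 (adjusted p = 0.842).

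Markers of the main cortical cell types were present: none of 20 neuronal, 24 astrocyte or 22 microglial marker genes was at 0 in all 8 libraries, and none of them passed the test. These 8 libraries had an effective depth of 20620000 to 28170000 reads, and the ribosomal RNA precursor Rn45s took 1.65% to 4.75% of the signal. Markers of blood, fibroblasts and choroid plexus were lowest in Control 1 among the 8 libraries. Marker genes of striatal neurons had log2 changes below 0 in the Prkci cKO punches, though none of the 27 passed, and their values are given below.

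Of the 14330 genes tested, 230 (1.61%) passed the threshold, an adjusted p under 0.05 over all of them. Of these, 216 (1.51%) were lower in Prkci cKO and 14 (0.0977%) were higher. The lower genes fell by a median of 0.59 on the log2 scale: 21 fell by over 1, 113 by 0.5 to 1 and 82 by under 0.5. The 2 groups did not overlap for 228 of the 230. Over all genes tested, 5.32% were lower and 3.18% higher without overlap. Without Prkci cKO 2 the count was 95, without Prkci cKO 1 it was 148, and 94 of the 230 passed with any 1 of the 8 libraries left out. Over all genes the median log2 change was 0.002 and 49.1% lay below 0. Of the lower genes 60 belonged to 5 lists of oligodendrocyte genes, which together held 131 tested genes, and 11 to 2 lists of activity-regulated genes, which held 45. Counts of lower list members, here and below, are to be read beside the 1.51% of all genes that were lower.

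**Figure D1:**
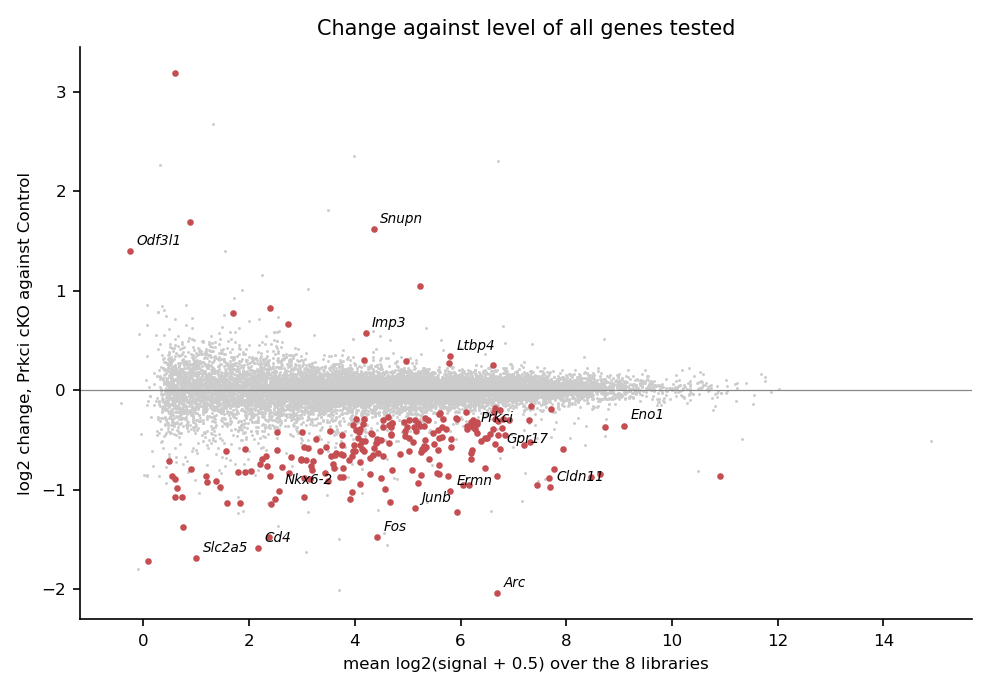
Log2 change between Prkci cKO and Control (vertical axis) against the mean log2 level over the 8 libraries (horizontal axis), 1 point per gene tested, with the genes past the threshold marked. Most marked genes lie below 0 (216 against 14), Arc is the lowest of them, and Snupn is the highest of those with a mean level above 4.

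Genes of mature oligodendrocytes and myelin made up the largest group. Of 45 tested genes of this list 32 were lower (71.1%, against 1.51% of all genes) and none was higher. The list median was -0.75 against 0.002 for all genes. In Prkcz cKO against the same Controls, where 0.649% of all genes passed, 9 of the 45 were lower and the median was -0.48. Whether the knockouts differ from each other in the lists was not tested. In bulk tissue, fewer oligodendrocytes and less myelin RNA per oligodendrocyte cannot be told apart. Mag, an adhesion protein of the innermost myelin layer, was 299, 255, 214 and 209 in Controls 1 to 4 and 125, 117, 101 and 162 in Prkci cKO 1 to 4, with 51.8% of the Control mean left (log2 change -0.95, SE 0.132, adjusted p = 0.00226). Cnp, an enzyme of the myelin cytoplasm chosen after its values were seen, was 644, 566, 471 and 471 against 292, 287, 252 and 369 (-0.84, adjusted p = 0.00226). For both genes the groups were separate and the Pkcz f/+ Controls were higher than the Pkcz f/f Controls. The outer myelin protein gene Mog (-0.78, adjusted p = 0.00732) fell as well, as did the tetraspan protein gene Mal (-0.88) and Mobp (-0.80), which were chosen after their values were seen. Mbp, which encodes the basic protein that compacts myelin, was 2772, 2097, 1369.8 and 1654 in Controls and 1347, 943, 780.0 and 1406 in Prkci cKO. Prkci cKO 4 lay above Control 3, and the log2 change of -0.81 (SE 0.207) did not pass (adjusted p = 0.075).

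Ermn, a cytoskeletal protein of myelinating cells, was 91.1, 85.6, 67.8 and 73.2 in Controls and 43.4, 34.1, 31.9 and 47.2 in Prkci cKO. Cldn11, which seals the layers of myelin, was 332, 318, 252 and 266 against 143, 142, 126 and 183. Neither gene's groups overlapped, and the share of the Control mean that remained was 49.3% for Ermn (log2 change -1.02, SE 0.12) and 50.9% for Cldn11 (-0.98, SE 0.115), each with adjusted p = 9.84e-04. Tspan2, a tetraspanin of the same cells, was 322, 311, 232 and 254 in Controls and 156, 148, 128 and 173 in Prkci cKO (-0.88, adjusted p = 9.84e-04), again with no overlap. Opalin, a membrane protein found in oligodendrocytes, fell to 50.2% of the Control mean (adjusted p = 0.014) and Adamts4, a protease of the proteoglycan matrix, to 49.4% (adjusted p = 9.84e-04). Tmem88b, a membrane protein gene, fell to 51.5% (adjusted p = 0.00226). Aspa, which splits N-acetylaspartate, was 18.03, 15.8, 12.6 and 13.7 in Controls and 7.57, 7.78, 7.32 and 8.13 in Prkci cKO (-0.91, SE 0.102, adjusted p = 9.84e-04). Its 4 Prkci cKO libraries were closer together (SD 0.343) than those of the Controls (SD 2.39). The lysophosphatidic acid receptor Lpar1 (-0.86), the neuregulin receptor Erbb3 (-0.90, in no list) and the orphan receptor Gpr37 (-0.84, chosen after its values were seen) were surface receptors that fell.

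Not every member of the list moved. Kif5a, a kinesin motor that neurons express, was 3143 ± 591 in Controls and 3508 ± 645 in Prkci cKO (0.16, adjusted p = 0.74), and Enpp2, the autotaxin gene that choroid plexus also expresses, was 629.6 ± 215 against 574 ± 95.1 (-0.08, adjusted p = 0.921). Both were chosen after their values were seen. The signal summed over the list ran from 10802 to 15246 in Controls and from 7830 to 10852 in Prkci cKO, a mean change of -26.5%. Prkci cKO 4 reached the lowest Control in this sum, which includes Kif5a and Enpp2.

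**Figure D2:**
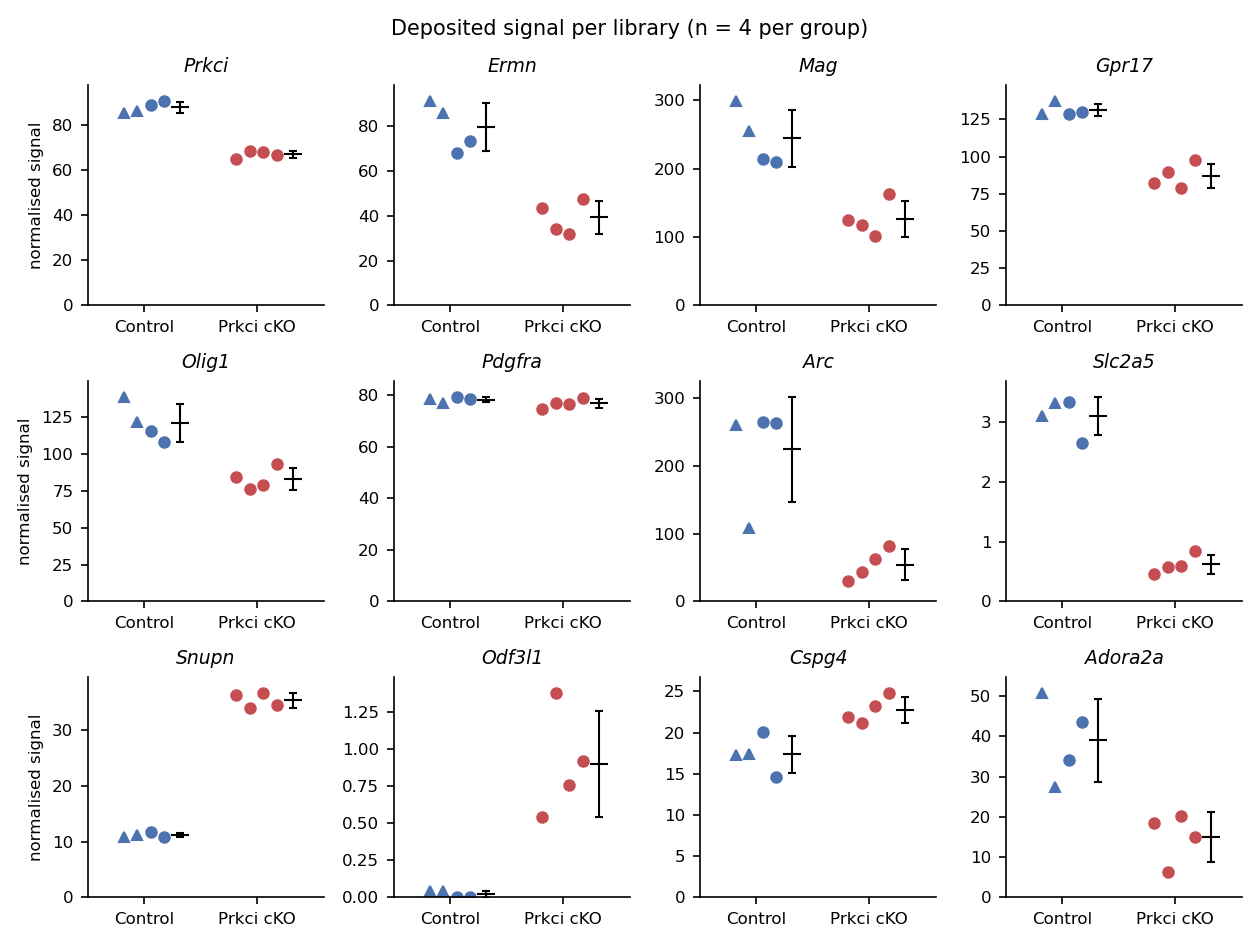
Normalised signal per library for 12 genes, with 4 Controls and 4 Prkci cKO libraries per panel, each axis starting at 0, triangles for Pkcz f/+ Controls and bars for the mean ± SD. Ermn, Mag, Gpr17, Olig1 and Arc separate downward, Snupn separates upward, and Pdgfra overlaps. Odf3l1, which entered the test only through libraries with Cre, is shown as a description.

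Promoter sequence was read for the members that RefSeq lists with a start site (GRCm38.p6), to show the stretches next to genes that fell together. SOX factors such as SOX10 bind motifs related to ACAAAG and ACAATG. Over the 250 bases before the start site, on both strands, 20.1% of 10932 tested genes with a promoter in the table held at least 1 of these 2 motifs, compared with 16 of 30 mature oligodendrocyte genes (53.3%) and 10 of the 22 that were lower (45.5%). A match is a description of these letters and no evidence of binding. The promoters of Ermn (chr2:58052865-58053114, minus strand), Cnp (chr11:100574689-100574938, plus strand) and Tmem88b (chr4:155785875-155786124, minus strand) are printed 5′ to 3′ because each belongs to a lower gene with a single listed start and 1 match. Capitals mark the match, which begins 234 bases before the start in Ermn, 167 in Cnp and 88 in Tmem88b, where it lies on the opposite strand.
Ermn: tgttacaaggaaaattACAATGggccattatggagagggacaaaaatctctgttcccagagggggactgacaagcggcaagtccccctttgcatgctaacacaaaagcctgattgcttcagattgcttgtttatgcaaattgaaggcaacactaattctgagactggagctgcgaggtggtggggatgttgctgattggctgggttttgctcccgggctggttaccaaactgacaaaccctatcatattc
Cnp: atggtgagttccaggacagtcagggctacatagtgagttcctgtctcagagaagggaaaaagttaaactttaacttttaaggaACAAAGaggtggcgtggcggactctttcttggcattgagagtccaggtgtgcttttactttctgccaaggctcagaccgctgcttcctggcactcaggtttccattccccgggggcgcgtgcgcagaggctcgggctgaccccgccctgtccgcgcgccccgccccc
Tmem88b: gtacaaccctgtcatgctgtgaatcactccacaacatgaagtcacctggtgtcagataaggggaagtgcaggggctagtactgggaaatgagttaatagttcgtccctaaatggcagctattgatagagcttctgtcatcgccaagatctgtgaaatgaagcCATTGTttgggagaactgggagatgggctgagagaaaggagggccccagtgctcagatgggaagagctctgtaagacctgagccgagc

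Transcription factors of the lineage fell with the myelin genes. Of 20 tested genes of this list 10 were lower and none was higher (median -0.31). Sox10, which oligodendrocytes need to express myelin genes, was 65.3, 52.9, 51.4 and 45.7 in Controls and 32.8, 33.2, 29.3 and 36.5 in Prkci cKO. The groups were separate, and 61.3% of the Control mean remained (-0.69, SE 0.0949, adjusted p = 0.00226). Olig1, a basic helix-loop-helix factor of the whole lineage, was 139, 121, 115 and 108 against 84.5, 75.9, 79.1 and 92.8 (-0.54, adjusted p = 0.00226). Olig2, its paralog, was 36.8, 32.01, 36.8 and 34.8 against 22.6, 25.8, 27.8 and 29.4 (-0.41, adjusted p = 0.013). In both, every Prkci cKO library lay below every Control. Among the factors of maturing cells, Nkx6-2 fell to 46.7% of the Control mean (-1.01, adjusted p = 0.00226), Zfp488 to 53.9% (-0.83, adjusted p = 0.00226) and Myrf, listed here under its older name Gm98, to 55.7% (-0.83, adjusted p = 0.0034). Sox9, which astrocytes also express, was 37.6 ± 3.09 in Controls and 36.2 ± 3.25 in Prkci cKO (-0.05, adjusted p = 0.86), and was chosen after its values were seen.

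At the stage between precursor and myelinating cell, 13 of 24 tested genes were lower (54.2%, against 1.51% of all genes). All 24 had a log2 change below 0, as did 49.1% of all genes, and the median was -0.34. In Prkcz cKO against the same Controls 10 of the 24 were lower and the median was -0.40. Gpr17, a receptor that marks premyelinating cells, was 129, 137, 129 and 130.3 in Controls and 82.3, 89.5, 78.7 and 97.4 in Prkci cKO. The Pkcz f/+ and Pkcz f/f Controls were alike in this gene, and the Prkci cKO mean was 66.2% of theirs (-0.60, SE 0.0627, adjusted p = 8.08e-04). Bcas1, a protein of early myelinating cells, was 131, 107, 74.9 and 91.99 against 61.8, 42.8, 39.3 and 64.7 (-0.95, adjusted p = 0.011). Enpp6, a choline phosphodiesterase of newly formed oligodendrocytes, was 20.2, 16.2, 16.2 and 16.9 against 9.52, 9.11, 6.35 and 13.1 (-0.87, adjusted p = 0.012). In both, the lowest Control stood above the highest Prkci cKO library. Sirt2, a tubulin deacetylase, fell to 69.6% of the Control mean (adjusted p = 0.00368), Cnksr3 to 64.01% (adjusted p = 0.00226) and the semaphorin receptor gene Plxnb3 to 54.9% (adjusted p = 0.00615). Itpr2, an intracellular calcium channel of this stage, was 18.5 ± 1.9 in Controls and 18 ± 2.23 in Prkci cKO with overlapping libraries (-0.04, adjusted p = 0.943). Without Prkci cKO 2 the count in this list was 5, and without Control 1 it was 8. SOX motifs as above stood in 10 of the 21 genes of this list with a promoter in the table (47.6%) and in 7 of the 10 lower ones (70.0%), beside 20.1% of tested genes.

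Of 24 tested precursor genes 3 were lower, Olig2, Nkx2-2 and Lims2 (12.5%, against 1.51% of all genes), and the median was -0.14. The unadjusted limma p was under 0.05 for 13 of the 24, as it was for 12.1% of all genes. Pdgfra, the growth factor receptor that defines precursors, was 78.3, 76.8, 79.3 and 78.6 in Controls and 74.5, 77.1, 76.7 and 78.8 in Prkci cKO. The libraries overlapped, and the log2 change was -0.03 with a 95% interval of -0.15 to 0.10 (adjusted p = 0.898). Cspg4, the NG2 gene itself, was 17.3, 17.4, 20.1 and 14.6 in Controls and 21.9, 21.2, 23.2 and 24.8 in Prkci cKO. All Prkci cKO values were above all Controls, but the change of 0.39 (SE 0.0999) did not pass (adjusted p = 0.0764), and the gene lies where the higher genes described below cluster. Neither of the matrix proteoglycan genes Vcan (-0.23, adjusted p = 0.328) and Ptprz1 (0.16, adjusted p = 0.479) passed, and Ptprz1 was picked with its values known. C1ql1, a secreted complement-like protein of precursors, was 7.09, 7.06, 7.06 and 6.94 against 5.45, 5.15, 5.91 and 4.97 (-0.36, adjusted p = 0.0857). Nkx2-2, which also acts as precursors differentiate, was 5.84, 7.41, 5.17 and 4.93 in Controls and 3.53, 3.67, 2.72 and 4 in Prkci cKO (-0.67, adjusted p = 0.02). Whether the 3 stages differ from each other in the size of their change was not tested.

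**Figure D3:**
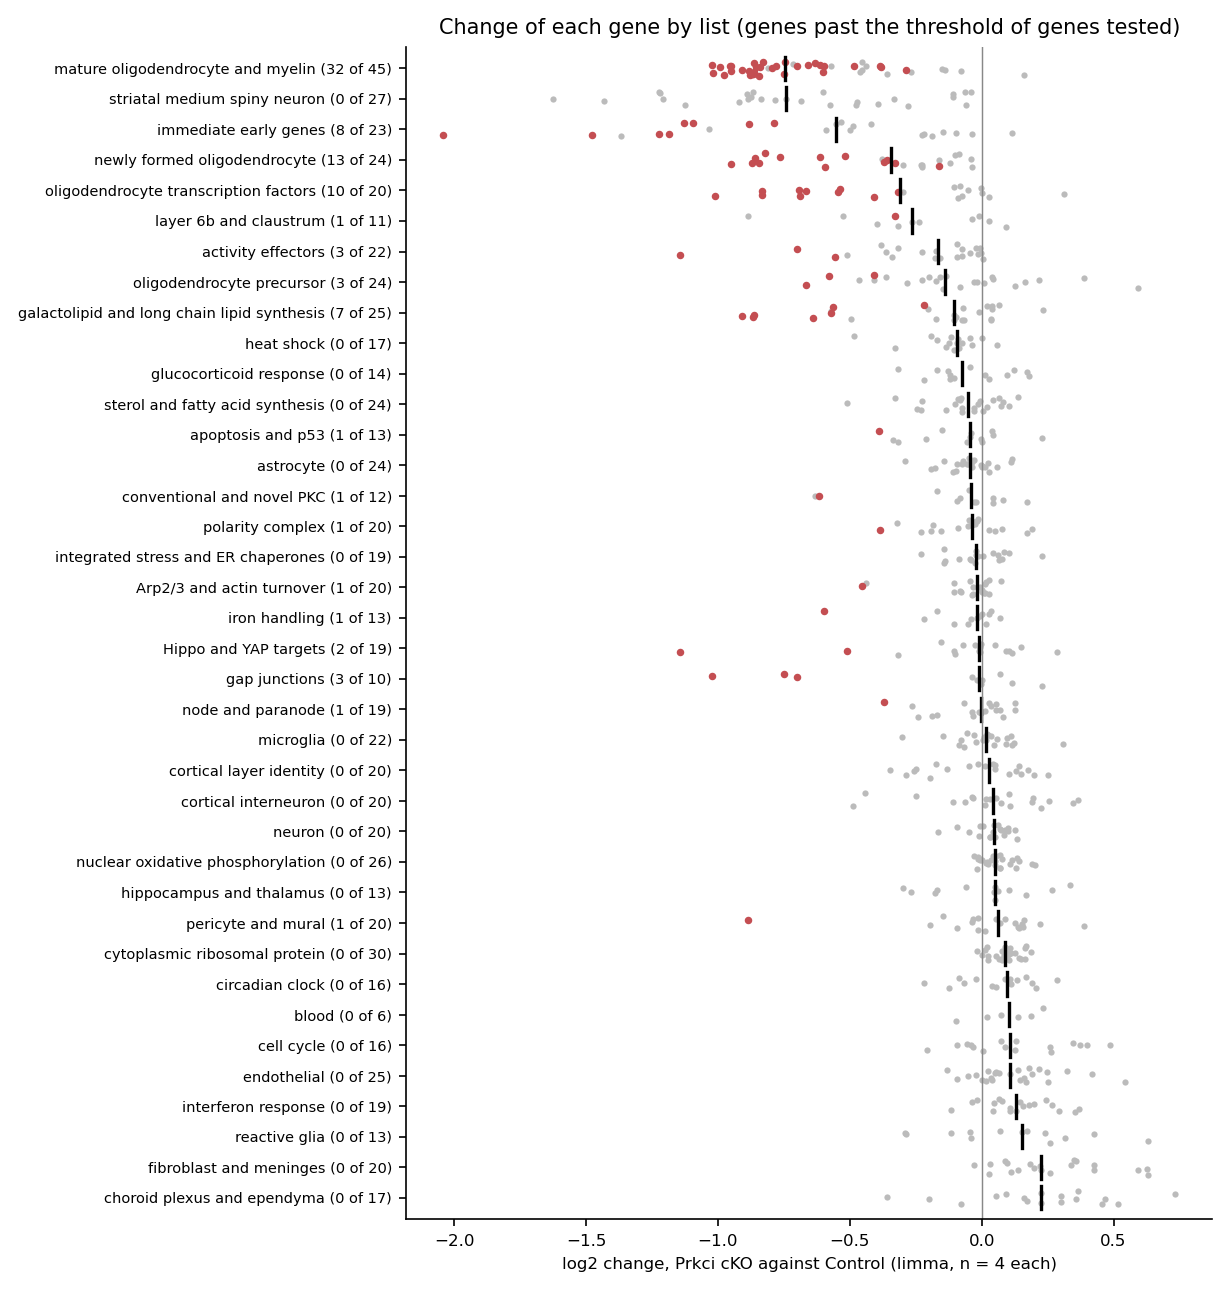
Log2 change of every tested member of the gene lists, 1 point per gene, with red for genes past the threshold and the list median marked. The medians run from -0.75 in mature oligodendrocyte genes and -0.74 in striatal genes to 0.23 in choroid plexus genes, and no list holds a higher gene past the threshold.

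Enzymes of myelin lipids were lower in part. In the list of galactolipid and long-chain lipid synthesis 7 of 25 were lower (28.0%, against 1.51% of all genes), with a median of -0.11. Ugt8a, which makes galactosylceramide, was 152, 150.3, 124 and 129 in Controls and 79.4, 70.2, 63.5 and 92.3 in Prkci cKO (-0.86, SE 0.106, adjusted p = 0.00132). Fa2h, which supplies its hydroxylated fatty acids, was 93.9, 74.5, 60.6 and 64.8 against 41.9, 38.8, 30.8 and 48.4 (-0.87, adjusted p = 0.00619). Neither gene's groups overlapped. The elongase Elovl7 fell to 63.7% of the Control mean, the ceramide synthase Cers2, listed as Lass2, to 66.9% and the glycolipid transfer protein Gltp to 67.8%. Gal3st1, which turns galactosylceramide into sulfatide, missed the threshold (-0.57, adjusted p = 0.0581). Of 24 genes of sterol and fatty acid synthesis none passed and the smallest adjusted p was 0.066, with a median of -0.05.

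Of 10 tested gap junction genes 3 were lower. Among them, the oligodendrocyte connexin genes Gjc3 and Gjb1 fell: Gjc3 to 59.05% (adjusted p = 0.00226) and Gjb1 to 59.8% of the Control mean (adjusted p = 0.0129). The astrocyte connexins that join to them had small changes, of -0.00 for Gja1 (95% interval -0.11 to 0.11, adjusted p = 0.997) and 0.00 for Gjb6 (-0.13 to 0.13, adjusted p = 0.998); Gjb6 was chosen after its values were seen. At the node of Ranvier and its flanks, 1 of 19 genes was lower (5.26%, against 1.51% of all genes). It was Nfasc, whose glial form anchors the paranodal loop, at 486 ± 32.6 in Controls and 375 ± 22.1 in Prkci cKO (-0.37, adjusted p = 0.0102).

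The level of a list in each library, as the mean log2 value of its tested members relative to the Control mean, shows which animals carried these differences. For mature oligodendrocyte genes it was 0.23, 0.09, -0.19 and -0.13 in Controls 1 to 4 and -0.59, -0.75, -0.84 and -0.44 in Prkci cKO 1 to 4. For newly formed oligodendrocyte genes it was 0.08, 0.00, -0.04 and -0.05 and -0.42, -0.44, -0.53 and -0.28. For precursor genes it was 0.01, -0.02, 0.04 and -0.03 and -0.14, -0.14, -0.11 and -0.07. Each list separated the groups, with Prkci cKO 3 lowest and Prkci cKO 4 highest among the Prkci cKO libraries in the first 2. Controls 1 and 2, the Pkcz f/+ animals, lay above Controls 3 and 4 in the mature list, by a median of 0.35 over its genes. Against Controls 3 and 4 alone, 16 of the 45 mature genes were lower with a median of -0.53, and 3 of the 24 newly formed oligodendrocyte genes. All 216 lower genes kept a log2 change below 0 in that fit, and 81 of the 230 genes passed in it. Between the Pkcz f/+ and Pkcz f/f Controls themselves 22 genes (0.154%) passed.

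**Figure D4:**
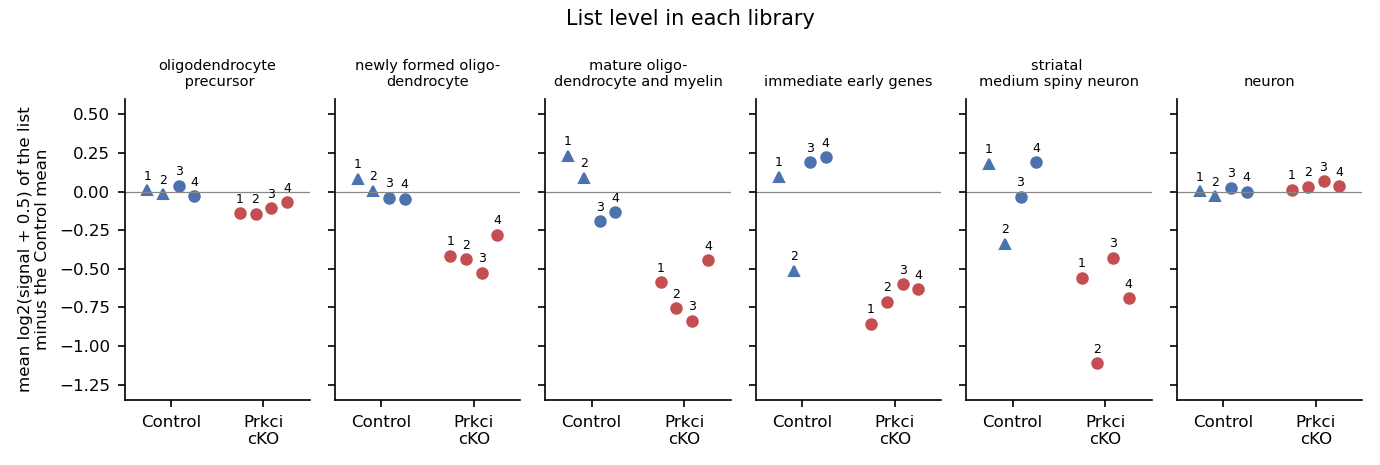
Mean log2 level of the tested members of the gene lists in each of the 8 libraries, relative to the Control mean, with triangles for the Pkcz f/+ Controls. The mature oligodendrocyte level lies between -0.19 and 0.23 in Controls and between -0.84 and -0.44 in Prkci cKO, and in immediate early genes Control 2 lies at -0.51, near the Prkci cKO libraries.

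Immediate early genes, which neurons switch on within minutes of activity, held the most lower genes of any list outside the oligodendrocyte lists. Of 23 tested 8 were lower (34.8%, against 1.51% of all genes) and none was higher, and the median was -0.55. In Prkcz cKO against the same Controls 10 of the 23 were lower and the median was -0.79. Arc, which acts at synapses after activity, was 260.4, 108, 264 and 263 in Controls and 29.6, 43.9, 62.4 and 80.99 in Prkci cKO. The highest Prkci cKO library lay below the lowest Control, which was Control 2, and 24.2% of the Control mean remained (-2.04, SE 0.33, adjusted p = 0.00543). Fos, a subunit of the AP-1 factor, was 36.1, 18.6, 45.3 and 50.6 against 10.9, 11.8, 15.2 and 11.8 (-1.48, SE 0.278, adjusted p = 0.0141). Junb, another AP-1 subunit, was 56.2, 37.9, 62.8 and 58.1 against 16.8, 22.7, 31.2 and 23.1 (-1.19, adjusted p = 0.00226). Npas4, an activity-dependent factor found in neurons, was 15.3, 19.2, 28.8 and 24.5 against 9.94, 10, 15.1 and 5.96 (-1.09, adjusted p = 0.0419). The groups did not overlap in these 3 genes, and Control 2 was the lowest Control for Fos and Junb but not for Npas4. The phosphatase Dusp1 fell to 44.7% of the Control mean (adjusted p = 0.00486), the kinase Sik1 to 55.7% (adjusted p = 0.00439), Ier2 to 51.7% and Nr4a1 to 40.6%. Nr4a1 fell although its groups overlapped, with Prkci cKO 4 at 54.1 and Control 2 at 48.8.

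Egr1, a zinc finger factor of the same response, was 429, 259, 407 and 548 in Controls and 273, 260.3, 282 and 268 in Prkci cKO. Control 2 was at the level of the Prkci cKO libraries, and the change of -0.55 did not pass (adjusted p = 0.235). The level of the whole list was 0.10, -0.51, 0.19 and 0.22 in Controls 1 to 4 and -0.86, -0.71, -0.60 and -0.63 in Prkci cKO 1 to 4. Control 2 stood apart from the other Controls, and without it 14 members were lower instead of 8. The count was 4 without Prkci cKO 1 or 2 and 5 without Control 3 or 4. Of 22 slower activity-regulated effectors 3 were lower (13.6%, against 1.51% of all genes), with a list median of -0.17. These were Gadd45b (-0.70), Cyr61 (-1.14) and Tiparp (-0.56). Bdnf was 37.8 ± 6.17 in Controls and 32.1 ± 2.35 in Prkci cKO (-0.22, adjusted p = 0.361).

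The promoters of Junb (chr8:84978749-84978998, minus strand), Dusp1 (chr17:26508473-26508722, minus strand) and Fos (chr12:85473640-85473889, plus strand) are shown. They were picked from the smallest limma p upward among lower immediate early genes that have a single listed start and hold the motif TGACG. These genes fell by over 1 on the log2 scale. Capitals mark TGACG on either strand, the core of the site that the cyclic AMP response factor CREB binds. In the 250 bases before the start, 14 of 18 immediate early genes with a promoter in the table held TGACG (77.8%), against 3279 of 10932 tested genes. The match begins 106 bases before the start in Junb, and 129 and 66 bases before it in Fos. In Dusp1 a match lies at 191 bases, and the run at 143 is the full palindrome TGACGTCA, in which 2 matches on opposite strands overlap. That palindrome stood in 2 of the 18 genes and in 3.03% of tested genes.
Junb: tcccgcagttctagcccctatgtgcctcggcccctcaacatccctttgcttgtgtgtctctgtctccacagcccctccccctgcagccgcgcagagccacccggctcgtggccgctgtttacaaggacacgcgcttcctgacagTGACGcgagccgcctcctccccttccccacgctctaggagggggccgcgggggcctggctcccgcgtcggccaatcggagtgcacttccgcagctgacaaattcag
Dusp1: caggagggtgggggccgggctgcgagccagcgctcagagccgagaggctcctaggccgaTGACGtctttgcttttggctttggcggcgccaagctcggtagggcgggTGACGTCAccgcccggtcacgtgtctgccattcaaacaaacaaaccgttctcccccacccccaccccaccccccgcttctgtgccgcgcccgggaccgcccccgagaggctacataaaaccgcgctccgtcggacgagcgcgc
Fos: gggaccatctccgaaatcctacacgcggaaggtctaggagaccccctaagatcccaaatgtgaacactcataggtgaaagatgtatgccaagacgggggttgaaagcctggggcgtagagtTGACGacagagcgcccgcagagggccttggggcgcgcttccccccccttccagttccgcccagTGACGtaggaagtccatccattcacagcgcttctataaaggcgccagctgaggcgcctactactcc

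Markers of striatal projection neurons, which lie beneath the cortex, moved with the groups. Of 27 tested none passed (smallest adjusted p 0.0581), and 22 had an unadjusted p under 0.05, as did 12.1% of all genes. All 27 had a log2 change below 0, as did 49.1% of all genes. The groups did not overlap for 16 of them, while 5.32% of all genes were lower without overlap. The median was -0.74, and in Prkcz cKO against the same Controls it was -0.04. The summed signal of the list ran from 2466 to 3350 in Controls and from 1848 to 2449 in Prkci cKO, and no marker was at 0 in all 8 libraries. Adora2a, an adenosine receptor of these neurons, was 50.8, 27.5, 34.2 and 43.5 in Controls and 18.6, 6.31, 20.1 and 14.9 in Prkci cKO (-1.43, adjusted p = 0.0677). The dopamine receptor gene Drd1a was 41.6, 26.6, 33.8 and 44.8 against 20.5, 15.3, 22.5 and 19.3 (-0.89, adjusted p = 0.0626). Drd2, the other main dopamine receptor, was 17.5, 8.75, 13.8 and 19.2 against 7.11, 1.16, 7.4 and 4.68 (-1.62, adjusted p = 0.12). Prkci cKO 2 was lowest in all 3 receptors and Prkci cKO 3 was not, so the order of the libraries differs from that of the myelin genes.

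The striatal level relative to the Control mean was 0.18, -0.34, -0.03 and 0.19 in Controls 1 to 4 and -0.56, -1.11, -0.43 and -0.69 in Prkci cKO 1 to 4. Control 2, low in immediate early genes, was the lowest Control here too, whereas its mature oligodendrocyte level was 0.09. Lower genes outside the lists included Slc5a7, the choline transporter of cholinergic neurons, at 4.46, 3.64, 5.13 and 6.29 in Controls and 1.71, 1.42, 2.65 and 1.99 in Prkci cKO (-1.14, adjusted p = 0.0361), and Slc10a4, a vesicle protein of the same neurons, at 1.74 and 0.56 (adjusted p = 0.0466), both chosen after their values were seen. With the striatal level of each library as a covariate 8 genes passed, with the immediate early gene level 1 and with the mature oligodendrocyte level 3. In none of these 3 levels do the groups overlap, so level and group cannot be separated in such a fit. How much of the lower myelin and immediate early gene signal goes with the lower striatal signal was not tested.

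Markers of other cell types gave few calls. No gene passed among 20 neuronal (median 0.05), 20 cortical layer (0.03), 20 interneuron (0.04), 24 astrocyte (-0.04), 22 microglial (0.02) and 25 endothelial markers (0.11). The smallest adjusted p in these lists, 0.055, was that of Vwf, the platelet-binding protein of endothelium, at 18.2 ± 3.42 in Controls and 26.5 ± 1.62 in Prkci cKO (0.54), and of the deep-layer transcription factor Foxp2, at 27.4 ± 3.51 and 21.3 ± 0.87 (-0.35). The microglial gene Fcrls was 31.3 ± 3.34 and 25.3 ± 1.98 (-0.30, adjusted p = 0.0892), and Gfap, the astrocyte filament, 137 ± 11.1 and 112 ± 10 (-0.29, adjusted p = 0.1). Of 20 pericyte and mural cell genes 1 was lower: Mcam, an adhesion molecule, at 36.3, 30.99, 26.1 and 27.7 in Controls and 15.9, 15.1, 13.6 and 20.1 in Prkci cKO (-0.89, adjusted p = 0.00226). Its groups were separate, and none of the other 19 passed. In the layer 6b and claustrum list Tmem163, also listed as a newly formed oligodendrocyte gene, was the 1 lower gene of 11 (-0.33, adjusted p = 0.045). No gene passed in the lists of interferon response, cell cycle, heat shock, endoplasmic reticulum stress, reactive glia, clock, glucocorticoid response, ribosomal protein and oxidative phosphorylation. One gene was lower in iron handling, Trf, the transferrin that oligodendrocytes secrete (-0.60, adjusted p = 0.0174), and 1 in apoptosis and p53 targets, Phlda3 (-0.39, adjusted p = 0.0301).

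Among the partners of the deleted kinase, 1 of 20 polarity genes was lower, and that gene was Prkci. Pard3, the PAR3 scaffold, was 23.4, 20.7, 20.3 and 21.01 in Controls and 19.4, 18.1, 16.6 and 18.3 in Prkci cKO. The groups were separate, but the change of -0.23 did not pass (adjusted p = 0.19). Pard6a was 15.9 ± 1.48 against 16.4 ± 0.385 (0.05, adjusted p = 0.86). Of 12 further protein kinases C 1 was lower: Prkcq, at 20.9, 18.6, 18.1 and 19.6 in Controls and 11.6, 10.8, 12.9 and 14.6 in Prkci cKO (-0.62, SE 0.0877, adjusted p = 0.00226), with all Prkci cKO libraries below all Controls. Among 19 Hippo pathway genes and YAP targets 2 were lower: Amotl2, a junction protein that holds YAP, at 23.6, 22.4, 20.6 and 18.6 against 13.8, 15.4, 14.2 and 15.6 (-0.51, adjusted p = 0.00526), and Cyr61, counted above among the activity-regulated genes, at 4.99, 4.4, 12.6 and 10.9 against 2.74, 3.02, 4.1 and 2.7 (adjusted p = 0.0498). Cyr61 was higher in Controls 3 and 4 than in Controls 1 and 2. Ctgf, another target of YAP, missed the threshold (-0.32, adjusted p = 0.0858). Arpc1b, a subunit of the actin-branching Arp2/3 complex, was the 1 lower gene of 20 in its list (-0.45, adjusted p = 0.0144).

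The 14 higher genes included 4 that lie close together on chromosome 9. Snupn, an import adaptor for small nuclear ribonucleoproteins (chromosome 9, 56950878 to 56983206), was 10.9, 11.2, 11.7 and 10.8 in Controls and 36.4, 33.99, 36.7 and 34.6 in Prkci cKO. Both groups were tight and far apart (1.62, SE 0.0629, adjusted p = 8.92e-09). Imp3, a protein of ribosomal RNA processing (chromosome 9, 56937475 to 56938398), was 14.2, 13.2, 15.7 and 15.5 against 22.3, 21.9, 20.7 and 23.2 (0.57, adjusted p = 9.84e-04). Odf3l1, a relative of a sperm tail protein (chromosome 9, 56848659 to 56864679), was 0.04, 0.04, 0 and 0 in Controls and 0.54, 1.38, 0.76 and 0.92 in Prkci cKO. It reached the signal of 1 needed for testing in no Control but in 3 libraries with Cre, so its change of 1.40 on the log2(value + 0.5) scale is given as a description. Ptpn9, a tyrosine phosphatase (chromosome 9, 56994923 to 57062807), rose from 49.4 ± 4.14 to 59.7 ± 3.38 (0.27, adjusted p = 0.0448), a call that was lost when single libraries were left out (adjusted p up to 0.166). The 4 genes flank Cspg4 (chromosome 9, 56865033 to 56899870), whose regulatory sequence drives the Cre.

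Leaving out Odf3l1, 3 of 29 tested genes within 1 Mb of Cspg4 passed, all higher (10.3%, against 0.0977% of all genes). Snx33, which lies between Cspg4 and Imp3, was 11.5 ± 0.809 in Controls and 11.1 ± 1.1 in Prkci cKO (-0.06, adjusted p = 0.854). In the Prkcz cKO libraries, which carry the same type of driver and are set against the same Controls, Snupn was 35.3, 32.3 and 38.9, Imp3 24.8, 24.4 and 24.8, Odf3l1 1.42, 1.15 and 0.81 and Ptpn9 52.2, 52.04 and 49.9. Snupn and Imp3 lay above every Control in each of these libraries, and Ptpn9 overlapped the Controls. Odf3l1 entered the test only through libraries with Cre, so its values above the Controls are given as a description. Every animal with Cre in this series is a knockout, so the presence of the driver and the loss of a kinase cannot be told apart for these genes.

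Elsewhere in the genome Ltbp4, a matrix protein that binds latent TGF-beta, rose from 49 ± 2.17 to 62.4 ± 3.69 (0.34, adjusted p = 0.00805), and Wnt4, a secreted ligand, from 27.8 ± 2.28 to 34.2 ± 1.21 (0.30, adjusted p = 0.0399). Unc119, a lipid-binding trafficking protein, was 15.8 ± 1.28 in Controls and 19.6 ± 1.3 in Prkci cKO (0.30, adjusted p = 0.0455). A gene listed under the date-like name 9-Sep, read here as Septin 9 but not checked against an identifier, rose by 0.26 (adjusted p = 0.0159), and Dynlt1b, a dynein light chain with near-identical copies among which reads may be split, by 0.67 (adjusted p = 0.00411). The remaining higher genes were unnamed gene models.

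**Figure D5:**
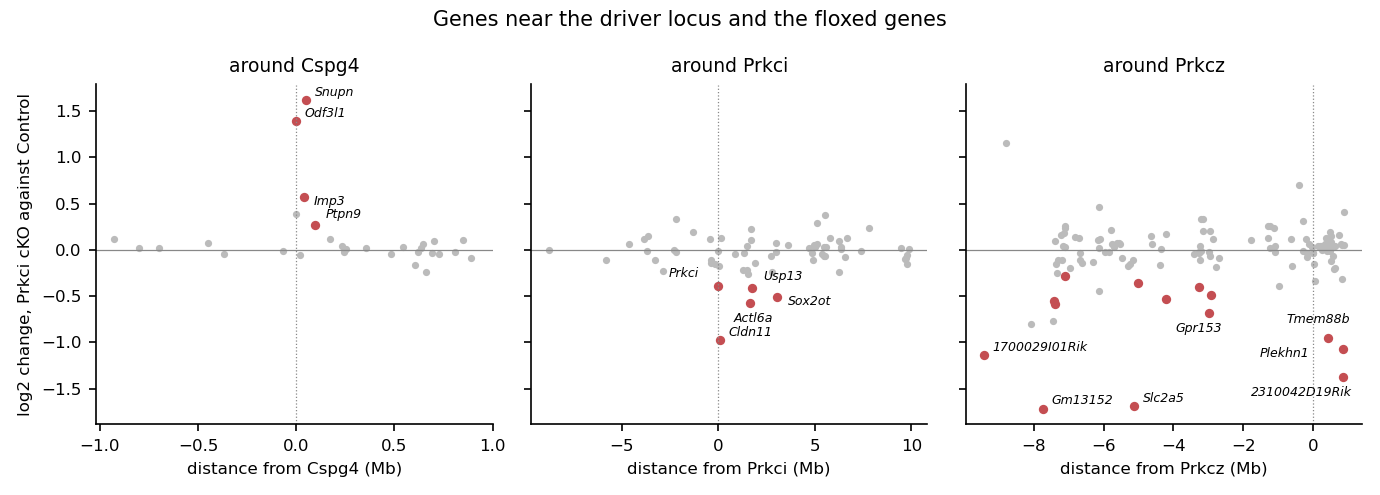
Log2 change of tested genes against their distance from Prkci, Cspg4 and Prkcz in Mb, 1 point per gene, with red for genes past the threshold. Beside Cspg4 4 marked genes stand above 0, of which Odf3l1 entered the test only through libraries with Cre. Around Prkcz 14 of 124 genes within 10 Mb are marked (11.3%), all below 0, where 1.51% of all genes were lower.

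Around Prkci on chromosome 3, 2 of 10 tested genes within 1 Mb were lower, Prkci itself and the myelin gene Cldn11. Within 10 Mb 5 of 66 were lower (7.58%, against 1.51% of all genes), these 2 among them. The other 3 were Usp13, a deubiquitinase at 40.2, 40.3, 40.8 and 40.4 in Controls and 30.4, 31.6, 30.2 and 28.6 in Prkci cKO (-0.41, adjusted p = 0.00846), Actl6a, a subunit of chromatin remodelling complexes (-0.58, adjusted p = 0.0174), and the non-coding RNA Sox2ot (-0.50, adjusted p = 0.0289). They lie 1653 to 3051 kb from Prkci, beyond the 1 Mb used to name genes, and were chosen after their values were seen. In Prkcz cKO, Usp13 was 42.6, 40.7 and 32.8 (-0.07, adjusted p = 0.687).

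A stretch of chromosome 4, and the genes named in it, were picked after their values were seen. Within 10 Mb of Prkcz (chromosome 4, 155260129 to 155361361), the gene for which the Controls were floxed, 14 of 124 tested genes passed (11.3%). All 14 were lower in Prkci cKO, as were 1.51% of all genes. None of those 14 passed in Prkcz cKO against the same Controls, a comparison in which 0.649% of all genes passed. Slc2a5, a fructose transporter (chromosome 4, 150119283 to 150144169), was 3.11, 3.33, 3.34 and 2.66 in Controls, 0.46, 0.58, 0.6 and 0.85 in Prkci cKO and 3.93, 2.91 and 2.37 in Prkcz cKO. The fall in Prkci cKO was 1.69 on the log2 scale (SE 0.158, adjusted p = 3.66e-04), while the Prkcz cKO libraries lay at the Control level. Eno1, a glycolytic enzyme beside it, was 583, 682, 584 and 624 in Controls, 467, 494, 486 and 478 in Prkci cKO and 694, 612 and 611 in Prkcz cKO (-0.36, adjusted p = 0.00576). Gpr153, an orphan receptor, fell by 0.69 (adjusted p = 0.00226), the ribosomal protein gene Rpl22 by 0.48 (adjusted p = 0.0317) and Plekhn1 by 1.07 (adjusted p = 0.00368). The Controls and the Prkcz cKO share the floxed Prkcz line, whereas the Prkci cKO come from the other line, so line and genotype cannot be told apart for these genes. Tmem88b, listed above with the myelin genes, is among the 14.

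Of the 216 lower genes 139 belonged to no list. The largest falls among them by the naming rule were those of Cd4, a surface receptor of T cells, at 9.76, 4.97, 6.77 and 8.76 in Controls and 3.2, 0.76, 3.1 and 2.24 in Prkci cKO (-1.59, adjusted p = 0.0492), and Sh3rf2, at 10.5, 5.28, 8.03 and 9.64 and 3.2, 0.93, 4.5 and 2.98 (-1.48, adjusted p = 0.0486). In both genes Prkci cKO 2 was lowest and Control 2 was the lowest Control, the order seen in the striatal markers. Arhgef19, an exchange factor for small GTPases, was 11.4, 13.9, 10.7 and 9.69 in Controls and 4.62, 5.02, 5.51 and 5.43 in Prkci cKO (-1.07, adjusted p = 4.46e-04). Nipal4, a magnesium transporter, was 10.5, 7.55, 6.43 and 6.94 against 3.99, 2.8, 2.45 and 4.54 (-1.09, adjusted p = 0.00884). Plekhh1 was 65.5, 52.5, 43.2 and 42.1 against 28.2, 24.5, 21.3 and 31.1 (-0.93, adjusted p = 0.00226). In Nipal4 and Plekhh1 Control 1 was highest and Prkci cKO 3 lowest, as in the mature oligodendrocyte list. Klf10, a zinc finger factor induced by growth factors, at 44.9 and 25.5 (-0.80, adjusted p = 0.00526), Fgfr2, a fibroblast growth factor receptor, at 51.1 and 37.9 (-0.43), Slc44a1, a choline transporter, at 91.3 and 60.04 (-0.60), and the semaphorin Sema4d at 84.1 and 66.3 (-0.34) fell too and were chosen after their values were seen.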

How the data were processed

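RNA sequencing of 8 cortical punches (4 Control, 4 Prkci cKO) was analysed, with 3 Prkcz cKO libraries in the fit. The authors deposited one table with a normalised signal for each gene in each library, adjusted for library size and with 2 decimals. Neither the scaling rule nor software versions nor the strand setting is stated in the labels or the file, so overlapping and antisense genes are uncertain. The submitters' processing notes name STAR, RSEM, edgeR, FastQC and Trim Galore, with GRCm38 as the genome. Low values (under 0.5) rise in steps, and 85.9% to 89.2% of them matched a whole number of steps within 0.005, which gave the effective depth. Whole reads were not recovered, so no count test was run. The series describes the animals of a group as biological replicates.

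Values were taken as log2(value + 0.5), which understates the change of low genes. One limma 3.58.1 fit in R 4.3.3 over 11 libraries in 3 groups, with a variance trend and 8 residual degrees of freedom, gave log2 changes, SE and two-sided p-values, adjusted by Benjamini-Hochberg over 14330 genes (threshold 0.05). On simulated data with 14330 genes, it recovered 69% of 100 log2 changes of 0.5 and 95% of 100 changes of 1, and called 2 unchanged genes. The simulated spread was normal and independent between genes. Shifts that many genes of a library share, as in the list levels above, were not simulated, so these figures hold for that setting only. Members and the 38 gene lists were chosen with earlier results of these data known, and lists are described by counts and medians without a list test. Named genes were Prkci and Prkcz, every higher gene, the 25 largest falls (mean log2 of at least 2, no overlap), the first 4 and the 6 smallest p of each list, and genes within 1 Mb of Prkci and Cspg4. Some genes under this rule are not reported here. The text marks any other gene as picked with its values known. Unnamed gene models (Gm, Rik, LOC) were counted only. Of 16228 symbols 15558 were placed on GRCm38 through GENCODE M21 or RefSeq synonyms. Promoters are from RefSeq (GRCm38.p6). Alternatives covered the pseudocount, filter, scaling, variance model, Control genotype, covariates, a replicate block and each library left out. Figures were drawn with matplotlib 3.10.9.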

Additional observations from a re-analysis of the deposited data

Results flagged for a closer look

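Of 298 groups of 4 libraries examined (the genes named in the text and the list levels, in each genotype), 9 held a library far from the other 3, and chance alone marks about 1 in 20. In Control replicate 2, Arc was 107.62 against 260 to 264 in the other Controls, and Rpl22 was 73.7 against 51.3 to 52.9. In Control replicate 1, Enpp6 was 20.17 against 16.2 to 16.9 and Vcan was 24.28 against 21.2 to 21.6, and the level of the blood marker list was -0.62 against 0.13 to 0.28 on the log2 scale relative to the Control mean. In Prkci cKO replicate 4, Gal3st1 was 11.22 against 8.98 to 9.36, Nr4a1 54.09 against 34.0 to 37.3 and Tmem163 24.35 against 21.9 to 22.2. In Prkci cKO replicate 2, Wnt4 was 35.95 against 33.4 to 33.7.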

How the results depend on the processing

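With each of the 8 libraries left out in turn, 95 to 211 genes passed (88 to 194 lower, 7 to 18 higher), and 94 of the 230 passed in all 8 fits. Leaving out Prkci cKO replicate 2 gave 95, leaving out its replicate 1 gave 148, and 136 were lower without Control replicate 1. In these fits 23 to 34 mature oligodendrocyte genes, 5 to 11 newly formed oligodendrocyte genes and 4 to 14 immediate early genes were lower. The newly formed count was 5 without Prkci cKO replicate 2 and 8 without Control replicate 1, and the immediate early gene count was 4 without Prkci cKO replicate 1 or 2, 5 without Control replicate 3 or 4 and 14 without Control replicate 2.

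Against the Pkcz f/f Controls alone 125 genes passed (97 lower, 28 higher), with 16 mature and 3 newly formed oligodendrocyte genes lower. Against the Pkcz f/+ Controls alone 31 were higher and 4 immediate early genes were lower. Array weights gave 346 genes (46 higher), a fit of only the 8 libraries 26 higher, Rn45s as a covariate 8 newly formed oligodendrocyte genes, and a fit without a variance trend 8 of those and 4 immediate early genes. Across settings other than the covariates none of the 84 genes named in the text that passed changed direction. Of the 27 that did not pass 9 changed sign in at least 1 setting, Gja1 among them under 3 scalings, and none passed after it. The cause of these shifts was not tested.

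With the immediate early gene level as a covariate 1 gene passed (1 higher, 0 lower), with the mature oligodendrocyte level 3 (1 higher, 2 lower) and with the striatal level 8 (2 higher, 6 lower). In these fits 0 mature oligodendrocyte genes, 0 immediate early genes and 0, 0 and 1 newly formed oligodendrocyte genes were lower, and the unadjusted p was under 0.05 for 960, 1789 and 1479 genes. Prkci did not pass with the immediate early gene level (-0.30, adjusted p = 0.219) or the mature oligodendrocyte level (-0.51, adjusted p = 0.0919). With the latter, Bcas1 (0.077), Fa2h (0.083), Gltp (0.088), Mal (0.038), Mobp (0.36), Mog (0.10), Nipal4 (0.077), Opalin (0.17), Sox2ot (0.12) and Trf (0.18) changed sign. Fa2h, Mal, Mobp, Mog, Opalin and Trf belong to the list whose mean is that covariate. A fall that a list shares is taken up by its own mean. The loss of calls among members of the same list was therefore largely fixed in advance. Level and group do not overlap, so these fits cannot separate them.

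With the replicate number as a block 263 genes passed (23 higher, 240 lower), 205 of them among the 230. Same-numbered libraries correlated at 0.19, 0.01, 0.20 and -0.19 in their deviations, and for 2 of 4 Controls the best match had the same number. The labels do not say whether the numbers pair the animals, and correlations over so few pairs cannot decide it. The depth is that read from the steps of low values, and single genes of low signal are the least certain.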
